A study of Homo sapiens with 6 samples.

Results

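Lysosome, V-ATPase and autophagy genes were followed in A375, a human melanoma cell line whose growth depends on mutant BRAF, during treatment with the BRAF inhibitor vemurafenib. Members were named genes of lysosomal enzymes and membrane proteins, proton pump subunits, the autophagy machinery and the regulators TFEB and TFE3, each read from its brightest probe set. The list held 46 genes, of which 45 had a probe set assigned to a single gene symbol, out of 19775 genes on the array. GLB1 had no such probe set. CTSK and CTSS, with mean signals of 4.49 and 4.50 log2 units, fell below the minimum of 5 log2 units, so 43 members were among the 13506 genes tested. All cells carried a CRISPR knockout of EIF4B, a cofactor of the translation initiation helicase. A lentivirus then delivered either LacZ, giving the knockout line KO/LacZ, or the wild-type eIF4B, giving the rescued line KO/eIF4B. Each line was given DMSO as vehicle or vemurafenib at 10 µM, read after 6 h and after 18 h of drug, with 1 Affymetrix array for each of the 6 combinations. The labels do not say whether a line is a single clone, whether the arrays came from separate cultures, or how long the vehicle cells were treated. Time in culture and the drug therefore cannot be told apart, and p-values measure only the spread between these arrays, which may be technical.

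Lysosomes are acidic organelles in which hydrolases break down proteins, glycans and lipids, and the V-ATPase is the proton pump that acidifies them. Autophagy delivers cytoplasm to lysosomes: the ULK1 kinase complex starts the process, the BECN1 lipid kinase complex marks the membrane, and ATG8 proteins are conjugated to the growing autophagosome. TFEB, TFE3 and MITF, related factors of the MiT/TFE family, bind E-box type motifs in many promoters of these genes. The kinase mTORC1, active on the lysosomal surface, holds TFEB and TFE3 in the cytoplasm. MITF is also the master regulator of pigment cells.

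The promoters of members were searched for that motif, and the windows that bear on the results below are shown first. RefSeq windows (GRCh38.p14) run from 250 bases before to 50 bases after each annotated start, and 33 of the 46 members had at least 1. The windows of ASAH1, ATP6V0E1, ATP6V1A, ATP6V1B2, ATP6V1C1, ATP6V1H, CTSB, CTSK, CTSS, HEXA, LAMP2, PSAP and UVRAG were not searched here. CTSA and NEU1 are shown as the motif-bearing members with the largest rise at 18 h, GAA and MCOLN1 as the members with the full palindrome of 10 bases, and LAMP1 for its number of matches. Capitals mark the E-box CACGTG with the flanking bases that extend it to TCACGTGA, or to that motif with a G before it and a C after it. The CTSA window lies at chr20:45891085-45891384 on the plus strand and NEU1 at chr6:31862772-31863071 on the minus strand. GAA lies at chr17:80101331-80101630, LAMP1 at chr13:113296989-113297288 and MCOLN1 at chr19:7522374-7522673, all on the plus strand. Each is written 5′ to 3′ in the direction of transcription.
CTSA: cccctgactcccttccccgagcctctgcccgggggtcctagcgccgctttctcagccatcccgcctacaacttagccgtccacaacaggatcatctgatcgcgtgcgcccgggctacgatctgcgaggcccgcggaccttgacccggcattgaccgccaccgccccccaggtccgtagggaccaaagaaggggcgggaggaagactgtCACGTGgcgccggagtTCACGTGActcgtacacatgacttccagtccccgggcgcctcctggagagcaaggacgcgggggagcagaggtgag
NEU1: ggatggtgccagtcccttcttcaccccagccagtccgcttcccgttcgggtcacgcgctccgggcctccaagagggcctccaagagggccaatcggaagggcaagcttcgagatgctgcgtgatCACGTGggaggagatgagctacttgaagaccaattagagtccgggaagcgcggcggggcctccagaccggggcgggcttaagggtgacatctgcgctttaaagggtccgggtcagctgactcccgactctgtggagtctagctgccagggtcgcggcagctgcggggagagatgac
GAA: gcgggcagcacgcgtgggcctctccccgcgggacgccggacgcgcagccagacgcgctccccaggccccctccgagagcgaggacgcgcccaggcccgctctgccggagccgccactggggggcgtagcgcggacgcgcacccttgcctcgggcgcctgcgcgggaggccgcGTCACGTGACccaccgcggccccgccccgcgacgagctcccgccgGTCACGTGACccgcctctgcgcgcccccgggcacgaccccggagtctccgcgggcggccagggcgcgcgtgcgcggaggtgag
LAMP1: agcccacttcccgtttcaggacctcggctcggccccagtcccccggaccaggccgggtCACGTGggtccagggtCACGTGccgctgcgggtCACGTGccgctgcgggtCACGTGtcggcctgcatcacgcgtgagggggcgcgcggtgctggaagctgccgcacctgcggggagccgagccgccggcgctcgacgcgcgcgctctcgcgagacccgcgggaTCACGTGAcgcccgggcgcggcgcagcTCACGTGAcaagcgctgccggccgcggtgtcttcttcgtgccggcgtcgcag
MCOLN1: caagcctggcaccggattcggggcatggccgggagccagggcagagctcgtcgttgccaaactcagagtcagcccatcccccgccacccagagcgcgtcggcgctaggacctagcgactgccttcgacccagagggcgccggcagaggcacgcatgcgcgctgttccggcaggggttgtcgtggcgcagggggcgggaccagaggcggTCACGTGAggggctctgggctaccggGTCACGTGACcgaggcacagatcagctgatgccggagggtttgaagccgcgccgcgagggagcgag

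The arrays were alike in overall signal, with medians of 5.196 to 5.221 log2 units. EIF4B itself, the targeted gene, read 8.40, 8.53 and 8.53 log2 units in KO/LacZ cells (vehicle, 6 h, 18 h), and 10.07, 10.14 and 10.28 in KO/eIF4B cells. That brightest probe set differed by -1.68 log2 units, knockout minus rescued (SE 0.05, limma, Benjamini-Hochberg adjusted p = 0.0056), while the other 2 EIF4B probe sets differed by 0.19 and 0.17 and did not pass in the fit over all probe sets. The part of the transcript that each matches was not analysed here. Of the melanoma markers, SOX10, MCAM, CSPG4 and S100B read 7.42 to 10.57 log2 units on all arrays, PMEL and TYR 5.44 to 5.81, and MLANA and TYRP1 lay below the minimum of 5 log2 units. MCAM and CSPG4 fell by 0.55 each at 6 h and by 0.63 and 0.74 at 18 h (limma, Benjamini-Hochberg adjusted p = 0.0079, 0.013, 0.0012 and 0.0013). SOX10 fell by 0.63 at 6 h and differed by -0.11 at 18 h, which did not pass (limma, Benjamini-Hochberg adjusted p = 0.017 and 0.39). MITF, also a melanoma marker, went the other way and rose by 1.01 at 6 h and 1.63 at 18 h (limma, Benjamini-Hochberg adjusted p = 0.0043 and 0.00035). S100B, PMEL and TYR did not pass at either time. Of the blood cell and macrophage markers, PTPRC, CD14, CD163 and TYROBP lay between 2.92 and 4.80 log2 units on all 6 arrays, CD3E read 5.68 to 5.85, and LYZ read 6.06 to 7.15 and fell by 0.86 at 18 h (adjusted p = 0.0013).

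Hydrolases and their cofactors were the members that rose most. After 18 h of vemurafenib 23 of the 43 tested members rose and 7 fell (limma, with terms for line and drug, Benjamini-Hochberg threshold 0.05). These were 53.5% and 16.3% of the members, set against 28.1% higher and 23.3% lower among all 13506 genes, 51.4% in either direction. The median change was 0.27 log2 units over the members and 0.01 over all genes tested. Changes were modest: the largest rise was 1.04 log2 units (2.06-fold) and the largest fall was 1.33-fold. By at least 0.5 log2 units 12 members rose and 0 fell, where 14.8% and 11.0% of all genes did so. The plot of member changes sets out each line, and the plot of array values shows those 12 genes.

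**Figure D1:**
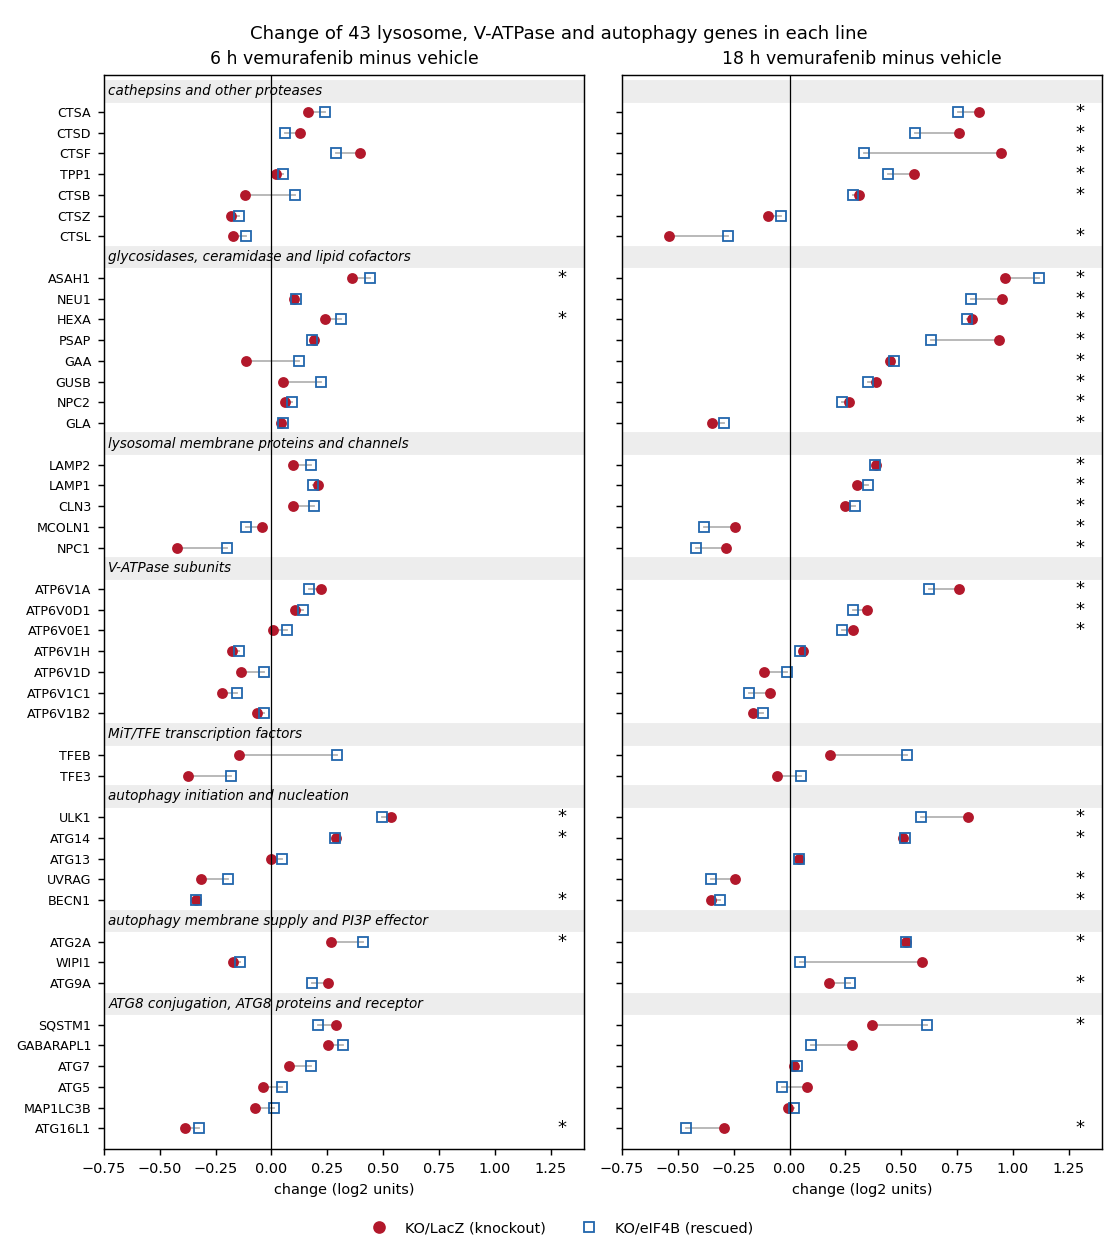
Change of the 43 tested members at 6 h (left) and 18 h (right) against vehicle, in log2 units, grouped by role and ordered within a group by the mean 18 h change. Filled circles are KO/LacZ and open squares KO/eIF4B, 1 array pair each, and a star marks a Benjamini-Hochberg adjusted p under 0.05 in the additive limma model. At 18 h, 8 of 8 tested glycosidase and lipid-cofactor genes carry a star, 7 to the right of 0 and GLA to the left, while the V-ATPase group has 3 stars of 7. Of all genes tested, 51.4% passed at 18 h.

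Among enzymes of glycolipid and glycan breakdown and their cofactors, 7 of 8 tested members rose at 18 h and GLA fell. These were 87.5% higher and 12.5% lower, where 28.1% and 23.3% of all genes were. ASAH1, the acid ceramidase, read 9.52, 9.88 and 10.48 log2 units in KO/LacZ cells (vehicle, 6 h, 18 h), and 9.29, 9.73 and 10.41 in KO/eIF4B cells. Its level was higher at each later time in both lines, and all vemurafenib arrays lay above both vehicle arrays. The change was 0.40 at 6 h and 1.04 at 18 h (SE 0.07 each, limma, Benjamini-Hochberg adjusted p = 0.021 and 0.00042). Of its other probe sets above the minimum signal, 2 gave 1.05 and 0.997 at 18 h and 1 gave 0.27. NEU1, the lysosomal sialidase, read 7.69, 7.79 and 8.64 log2 units in KO/LacZ cells and 7.53, 7.64 and 8.34 in KO/eIF4B cells. The 6 h arrays overlapped the vehicle arrays and only the 18 h arrays stood above them. NEU1 rose by 0.88 log2 units at 18 h (SE 0.07, limma, Benjamini-Hochberg adjusted p = 0.00063).

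HEXA, a subunit of the hexosaminidase that cleaves gangliosides, read 9.16, 9.40 and 9.98 log2 units in KO/LacZ cells and 9.13, 9.45 and 9.93 in KO/eIF4B cells. The lines lay close together at each point, and HEXA rose by 0.27 at 6 h and 0.80 at 18 h (limma, Benjamini-Hochberg adjusted p = 0.042 and 0.00062). Its other probe set above the minimum signal gave 0.15 at 18 h, which did not pass, and the mean of its 4 probe sets, 2 of them below the minimum, gave 0.27. PSAP, the precursor of the saposins that present lipids to hydrolases, read 10.50, 10.69 and 11.43 log2 units in KO/LacZ cells and 10.66, 10.84 and 11.29 in KO/eIF4B cells. PSAP rose by 0.78 at 18 h, by 0.94 in KO/LacZ cells and 0.63 in KO/eIF4B cells. GAA, which degrades glycogen, rose by 0.46, GUSB, the β-glucuronidase, by 0.37 and NPC2, a soluble cholesterol carrier, by 0.25. GLA, the α-galactosidase, changed by -0.32 at 18 h in a group that otherwise rose (SE 0.06, limma, Benjamini-Hochberg adjusted p = 0.0081), and by 0.05 at 6 h, which did not pass.

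Of 7 tested proteases 5 rose at 18 h, CTSL fell and CTSZ did not pass. These were 71.4% higher and 14.3% lower, where 28.1% and 23.3% of all genes were. CTSA, a carboxypeptidase that also holds NEU1 in an active complex, read 9.59, 9.75 and 10.44 log2 units in KO/LacZ cells and 9.64, 9.88 and 10.39 in KO/eIF4B cells. It rose by 0.80 at 18 h (SE 0.07, limma, Benjamini-Hochberg adjusted p = 0.00081), close in size to the rise of NEU1. CTSD, the main aspartic protease, read 6.89, 7.02 and 7.65 log2 units in KO/LacZ cells and 6.93, 6.99 and 7.48 in KO/eIF4B cells. TPP1, a tripeptidyl peptidase, read 8.16, 8.18 and 8.72 in KO/LacZ cells and 8.14, 8.19 and 8.58 in KO/eIF4B cells. For both genes the 6 h arrays stayed within 0.13 log2 units of vehicle in each line, and the rise at 18 h was 0.66 for CTSD and 0.50 for TPP1. The other TPP1 probe sets gave 0.68, 0.49 and -0.09 at 18 h.

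Cysteine cathepsins went different ways at 18 h. CTSF read 7.90, 8.29 and 8.84 log2 units in KO/LacZ cells and 8.03, 8.32 and 8.36 in KO/eIF4B cells. It rose by 0.64, with the widest disagreement between the lines of all members, 0.95 in KO/LacZ cells and 0.33 in KO/eIF4B cells (SE 0.16, limma, Benjamini-Hochberg adjusted p = 0.020). Without the knockout vehicle array the CTSF change was 0.46 and no longer passed (limma, Benjamini-Hochberg adjusted p = 0.11), and without the knockout 18 h array it was 0.36 and passed (adjusted p = 0.031). CTSB rose by 0.30, CTSL fell by 0.41 and CTSZ differed by -0.07 (limma, Benjamini-Hochberg adjusted p = 0.033, 0.011 and 0.38).

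**Figure D2:**
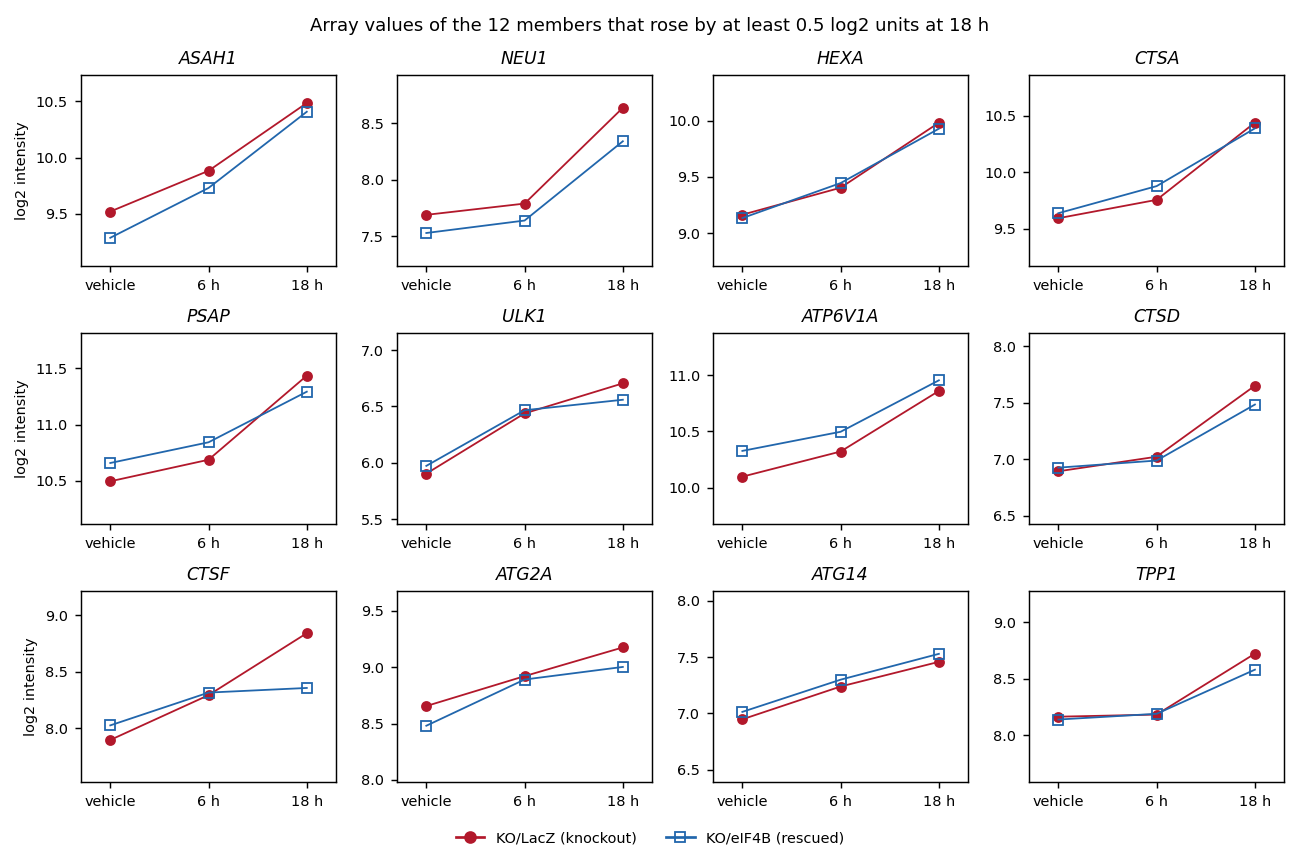
Log2 intensity on each of the 6 arrays for the 12 members that rose by at least 0.5 log2 units at 18 h, with KO/LacZ as filled circles and KO/eIF4B as open squares. Each point is 1 array, panels all span the same range of log2 units, and in every panel both 18 h arrays lie above both vehicle arrays.

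All 5 tested membrane protein genes changed at 18 h, by 0.38 log2 units at most. Of these 3 rose and 2 fell, where 28.1% and 23.3% of all genes did, 51.4% in either direction. LAMP2 and LAMP1, the most abundant glycoproteins of the lysosomal membrane, rose by 0.38 and 0.33, and CLN3, a membrane protein mutated in Batten disease, rose by 0.27. MCOLN1, the lysosomal calcium channel, fell by 0.31 and NPC1, which exports cholesterol together with NPC2, fell by 0.35 (limma, Benjamini-Hochberg adjusted p = 0.012 and 0.032). Without the rescued 18 h array NPC1 changed by -0.23 and did not pass (adjusted p = 0.14). The LAMP2 value depended on the probe set. The brightest set gave 0.38 and the other 3 gave 0.85 to 0.88 at 18 h, all past the threshold when every probe set was tested, a fit chosen after seeing the data. LAMP2 has splice forms with different ends, and the match of probe sets to them was not analysed here.

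Of 7 V-ATPase subunits 3 rose at 18 h, 0 fell and 4 did not pass. The share that rose was 42.9% and the share that fell was 0%, against 28.1% and 23.3% of all genes, 51.4% in either direction. ATP6V1A, the catalytic subunit of the cytosolic V1 sector, read 10.10, 10.32 and 10.86 log2 units in KO/LacZ cells and 10.33, 10.50 and 10.95 in KO/eIF4B cells. It rose by 0.69 (SE 0.06, limma, Benjamini-Hochberg adjusted p = 0.00099), and both 18 h arrays stood above the other 4. Both members of the membrane V0 sector rose, ATP6V0D1 by 0.32 and ATP6V0E1 by 0.26. The other V1 subunits, ATP6V1B2, ATP6V1C1, ATP6V1D and ATP6V1H, changed by -0.14 to 0.05 and did not pass, although 2 dimmer probe sets of ATP6V1C1 did, at -0.29 and -0.35, in the fit over all probe sets.

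Autophagy members of the same complex did not all move together. At 18 h, 2 of 5 tested initiation and nucleation members rose and 2 fell. Of 3 members for membrane supply and lipid binding 2 rose and 0 fell. Of 6 conjugation, ATG8 and receptor members 1 rose and 1 fell. Among all genes tested 28.1% rose and 23.3% fell. ULK1, the kinase that starts autophagy, read 5.90, 6.44 and 6.70 log2 units in KO/LacZ cells and 5.97, 6.47 and 6.56 in KO/eIF4B cells. It was the only member to pass with at least 0.5 log2 units at 6 h, with 0.51 at 6 h and 0.69 at 18 h (SE 0.08 each, limma, Benjamini-Hochberg adjusted p = 0.016 and 0.0015). Its partner ATG13 differed by 0.02 and 0.04. In the lipid kinase complexes, BECN1, the core subunit, fell by 0.34 at 6 h and by 0.33 at 18 h in a nearly identical amount in both lines. ATG14, the subunit that directs the complex to autophagosomes, read 6.95, 7.24 and 7.46 log2 units in KO/LacZ cells and 7.01, 7.30 and 7.53 in KO/eIF4B cells, and rose by 0.51 at 18 h. UVRAG, which takes the place of ATG14 in the endosomal form, fell by 0.30. BECN1 and ATG14 of the autophagosomal form therefore moved in opposite directions, while BECN1 and UVRAG of the endosomal form both fell. Each of these genes moved in the same direction in both lines.

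ATG2A, a lipid transfer protein that feeds the growing membrane, read 8.66, 8.92 and 9.17 log2 units in KO/LacZ cells and 8.48, 8.89 and 9.00 in KO/eIF4B cells. It rose by 0.34 at 6 h and 0.52 at 18 h, and the scramblase ATG9A rose by 0.22 at 18 h. WIPI1, which binds the lipid made by the BECN1 complex, changed by 0.59 in KO/LacZ cells and 0.05 in KO/eIF4B cells at 18 h. It did not pass (limma, Benjamini-Hochberg adjusted p = 0.14). A second WIPI1 probe set gave 0.42 and did not pass in the fit over all probe sets (limma, Benjamini-Hochberg adjusted p = 0.066). In the conjugation system ATG16L1 fell by 0.36 at 6 h and by 0.38 at 18 h, while ATG5 and the activating enzyme ATG7 differed by 0.02 and 0.03 at 18 h. A dimmer ATG5 probe set fell by 0.24 in the fit over all probe sets (limma, Benjamini-Hochberg adjusted p = 0.036). The ATG8 proteins MAP1LC3B and GABARAPL1 changed by 0.01 and 0.19 and did not pass, though a second GABARAPL1 probe set rose by 0.44 in the fit over all probe sets. SQSTM1, the p62 receptor that carries cargo to ATG8 proteins, rose by 0.49, by 0.37 in KO/LacZ cells and 0.62 in KO/eIF4B cells. Its dimmer probe sets above the minimum gave 0.31 to 0.56.

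The transcription factors on the list did not pass against vehicle. TFEB read 6.17, 6.03 and 6.35 log2 units in KO/LacZ cells and 5.65, 5.94 and 6.18 in KO/eIF4B cells. Its change at 18 h was 0.35 (SE 0.12, limma, Benjamini-Hochberg adjusted p = 0.053), which passed when only the 4 arrays of that comparison were fitted (adjusted p = 0.047), and a second probe set of similar brightness gave 0.01. TFE3 read 10.21, 9.84 and 10.15 log2 units in KO/LacZ cells and 10.08, 9.90 and 10.13 in KO/eIF4B cells. TFE3 was lowest at 6 h in both lines, at -0.28 against vehicle, which did not pass (limma, Benjamini-Hochberg adjusted p = 0.060), and was 0.27 higher at 18 h than at 6 h, which did (adjusted p = 0.039). Its dimmer probe sets above the minimum signal gave 0.09 and 0.17 between these times, and -0.29 and -0.15 at 18 h against vehicle. None of these values passed in the fit over all probe sets. MITF, the family member that was not on the list, read 8.50, 9.38 and 9.97 log2 units in KO/LacZ cells and 8.10, 9.24 and 9.88 in KO/eIF4B cells, a rise of 1.63 at 18 h. The mRNA level says nothing of whether these factors were in the nucleus.

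The 6 h time point showed few calls. Of the 43 members 5 rose and 2 fell, and among all genes 7.34% rose and 8.82% fell, so the member shares of 11.6% and 4.65% were near the background (16.2% of genes in either direction). By at least 0.5 log2 units 1 member rose and 0 fell, where 2.95% and 4.42% of all genes did. ULK1, ASAH1, ATG2A, ATG14 and HEXA rose, by 0.27 to 0.51 log2 units, and BECN1 and ATG16L1 fell. These calls rested on all 4 arrays of the comparison: without the knockout vehicle, the rescued vehicle, the knockout 6 h or the rescued 6 h array, 0 members passed in either direction, in fits with fewer residual degrees of freedom. The 18 h calls were fewer without a vehicle array, 15 higher and 0 lower without the knockout one and 12 higher and 1 lower without the rescued one. Without the rescued 18 h array 22 were higher and 4 lower.

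Between the times, 15 members were higher at 18 h than at 6 h and 2 were lower, 34.9% and 4.65%, where 19.0% and 14.9% of all genes were, 34.0% in either direction. By at least 0.5 log2 units 6 were higher and 0 lower, where 8.46% and 4.87% of all genes were. The hydrolases again led. NEU1 was higher by 0.78 log2 units, ASAH1 by 0.64, CTSA and PSAP by 0.60 each, CTSD by 0.56 and HEXA by 0.53 (limma, Benjamini-Hochberg adjusted p = 0.0030 to 0.010). GLA was lower by 0.37 and MCOLN1 by 0.24. Of 14 tested autophagy members only ATG14 passed, at 0.22, whereas 9 of 15 tested proteases, glycosidases and lipid cofactors were higher. ULK1, ATG2A, BECN1 and ATG16L1 differed by 0.18, 0.18, 0.01 and -0.02 between the times and did not pass. The count of higher members was 6 without the knockout 6 h array and 9 without either vehicle array or the knockout 18 h array. The count of lower members was 1 without either vehicle array or the knockout 18 h array, and 0 without either 6 h array. Without the knockout 6 h array PSAP (0.52) and CTSB (0.18) did not pass (limma, Benjamini-Hochberg adjusted p = 0.071 and 0.25).

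**Figure D3:**
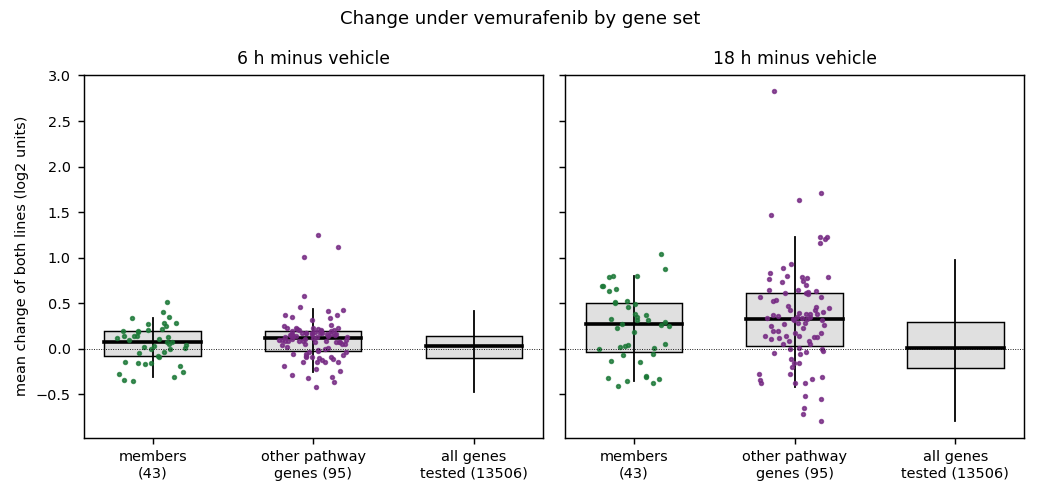
Mean change of both lines at 6 h and 18 h against vehicle, in log2 units, for the 43 tested members, 95 other genes of the pathway and all 13506 genes tested. Boxes span the middle quartiles with the median as a line, whiskers run from the 5th to the 95th percentile, and points are single genes. At 18 h the median is 0.27 for members, 0.32 for the other pathway genes and 0.01 for all genes.

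Other genes of the same pathways gave a similar picture. Of 110 listed, 95 were tested, and at 18 h 58 rose and 14 fell, 61.1% and 14.7% against 28.1% and 23.3% of all genes, with a median change of 0.32 log2 units. At 6 h 8 rose and 5 fell, 8.42% and 5.26%, near the 7.34% and 8.82% of all genes. Among further lysosomal enzymes 17 of 24 rose at 18 h and 3 fell. HGSNAT, which acetylates heparan sulfate for its breakdown, and the nuclease DNASE2 rose by 1.22 each, the sphingomyelinase SMPD1 by 0.80, GALC by 0.78, SCPEP1 by 0.76, GALNS by 0.75, MANBA by 0.73, MAN2B1 by 0.70, LIPA by 0.61, CTSH by 0.60 and ACP2 by 0.57. The dipeptidyl peptidase CTSC fell by 0.79 and the sulfatase ARSB fell by 0.51. SLC17A5, the sialic acid exporter that empties the product of NEU1 from the lysosome, rose by 1.12 at 6 h and 1.46 at 18 h.

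Among further V-ATPase genes 5 of 11 rose and 2 fell at 18 h, 45.5% and 18.2% against 28.1% and 23.3% of all genes. ATP6V0E2 rose by 0.79, ATP6V1G2 by 0.62 and the accessory subunit ATP6AP2 by 0.61, and ATP6V0B fell by 0.55. Of 38 further autophagy genes, 25 rose and 8 fell, 65.8% and 21.1%, the latter near the share of all genes. TP53INP1 and TP53INP2, which bind ATG8 proteins, rose by 2.83 and 1.71. The ATG8 genes GABARAP and MAP1LC3A rose by 1.21 and 0.84, while the brightest probe sets of MAP1LC3B and GABARAPL1 did not pass. The cargo receptors OPTN, NBR1 and TAX1BP1 rose by 1.16, 0.57 and 0.53. ATG10 (0.93), WDR45 (0.89), VAMP8 (0.79), RB1CC1 (0.65), TECPR1 (0.64) and STX17 (0.53) rose as well, and ATG101 and ATG12 fell by 0.72 and 0.65. RRAGA, a GTPase that brings mTORC1 to the lysosome, rose by 0.64.

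Markers of other cell types did not all stay level. LUM, DCN and ACTA2 rose by 2.49, 1.78 and 1.72 log2 units at 18 h, 3 of 4 tested fibroblast markers of 6 listed. The other tested fibroblast marker, COL1A1, changed by 0.02 at 18 h and did not pass (limma, Benjamini-Hochberg adjusted p = 0.83). PDGFRA and COL3A1 lay below 5 log2 units. The summed linear signal of the fibroblast list was 1248 to 1580 at 18 h and 480.4 to 598.6 under vehicle. The summed blood and macrophage list was 183.5 to 193.9 at 18 h and 237.9 to 271.9 under vehicle. Of the epithelial markers EPCAM and CDH1 lay below 5 log2 units, KRT14 rose and KRT18 fell. The summed epithelial list was 4614 to 5738 at 18 h and 6087 to 7563 under vehicle. Linear sums follow their brightest genes most. These were KRT18 in the epithelial list (11.70 to 12.75 log2 units) and LYZ in the blood and macrophage list (6.06 to 7.15). The part of these markers in the lysosomal changes was not tested. All arrays came from the A375 cell line, so these sums are not read as shares of cell types.

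Among members with a promoter window, the E-box stood in more of those that rose than of those that did not, a description with no test. Of 33 members with a promoter window 10 held CACGTG, which reads the same on both strands, or 30.3%, against 12.5% of the 10858 tested genes and 8.77% of all 27305 genes with a window. Among the 32 tested members with a window, 9 of 16 that rose at 18 h held it (56.2%) and 1 of 16 that did not rise (6.25%), MCOLN1. Among all tested genes the shares were 11.0% of those that rose and 13.1% of the rest. The 9 were NEU1, CTSA, CTSD, CTSF, ATG14, GAA, LAMP1, ATP6V0D1 and CLN3. Of the tested members not searched, ASAH1, HEXA, PSAP, ATP6V1A, LAMP2, CTSB and ATP6V0E1 rose at 18 h. ATP6V1B2, ATP6V1C1, ATP6V1H and UVRAG, also not searched, did not rise. The shares therefore cover only part of the members. A match is a description of these letters and not evidence that a factor bound there.

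Longer forms of the motif, which contain the E-box, were rarer. TCACGTGA, also the same on both strands, stood in the windows of 6 members (18.2%) against 2.13% of tested genes with a window, in CTSA, GAA, LAMP1, ATP6V0D1, CLN3 and MCOLN1. The 10-base form, TCACGTGA with a G before it and a C after it, stood in GAA, with first bases at -78 and -33 from the start, and in MCOLN1, at -16, against 0.838% of tested genes. GAA rose and MCOLN1 fell at 18 h with the same 10 bases near their starts. LAMP1 held 6 E-boxes and rose by 0.33, and NEU1 held 1, at -126, and rose by 0.88. TCATGTG, a form bound by MITF, was searched on both strands and stood in CTSA and TPP1, 2 of 33 members, and in 2.65% of tested genes.

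**Figure D4:**
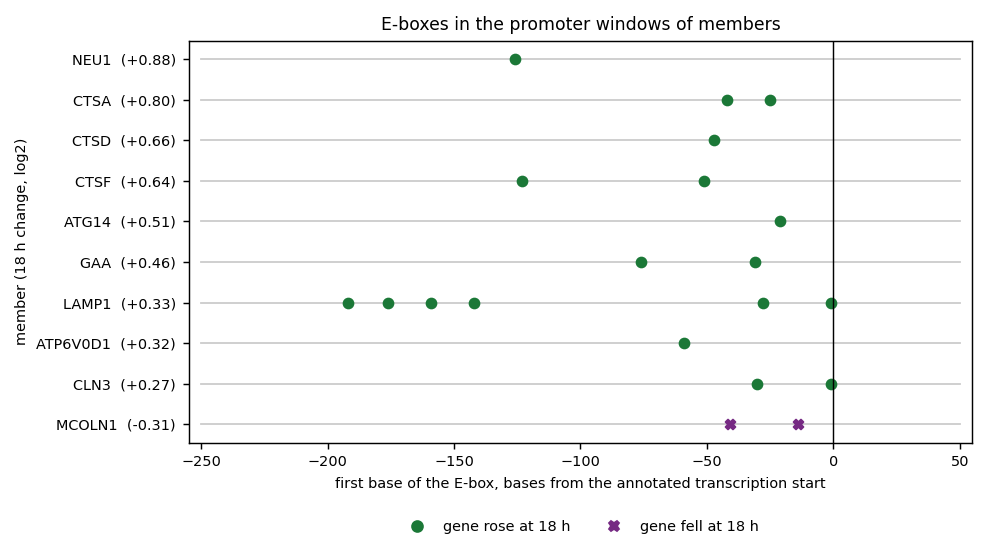
Position of the first base of each E-box in the promoter windows of the 10 members that held one, in bases from the annotated transcription start at the vertical line, with genes ordered by their 18 h change. For CLN3, which has windows from 2 nearby starts, the first is drawn. Circles are genes that rose at 18 h and crosses mark MCOLN1, which fell; E-boxes run from -192 in LAMP1 to -1 in LAMP1 and CLN3.

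Differences between the lines were small. Between knockout and rescued line, averaged over the 3 treatments, 0 of 43 members passed in limma with Benjamini-Hochberg adjustment, and 15 had an unadjusted p under 0.05. Of all genes 2.50% passed, 1.44% higher and 1.06% lower, and 23.0% had such an unadjusted p. The differences, knockout minus rescued, ran from -0.32 to 0.26 log2 units with a median of 0.03. LAMP2 stood at the threshold, with 9.78, 9.87 and 10.17 log2 units in KO/LacZ cells and 10.07, 10.25 and 10.45 in KO/eIF4B cells. It was lower in KO/LacZ cells in 3 of 3 pairs, by 0.32 on average (SE 0.05, limma, Benjamini-Hochberg adjusted p = 0.0501). SQSTM1 was lower by the same 0.32, ATG7 and GABARAPL1 were lower by 0.26 and 0.25, and LAMP1 was higher by 0.22. Each was so in 3 of 3 pairs, and none passed the threshold (limma, Benjamini-Hochberg adjusted p = 0.075 to 0.11). Dimmer probe sets above the minimum signal gave -0.28, 0.15 and -0.07 for SQSTM1, and -0.32, -0.31 and -0.05 for LAMP2. They gave -0.11 and -0.15 for ATG7, -0.23 for GABARAPL1, and 0.31, 0.24 and 0.09 for LAMP1. None passed in the fit over all probe sets. In all 13 members were higher and 11 lower in KO/LacZ cells in 3 of 3 pairs, where 25.9% and 21.2% of all genes were. With an intensity trend in the variance prior, LAMP2, SQSTM1, ATG7 and ATP6V1A passed as lower and LAMP1 as higher, and with a stricter minimum signal LAMP2 and ATG7 passed. Of the 95 other pathway genes ATP6V0A2, a V0 subunit, and the protease CTSH were higher in KO/LacZ cells by 0.66 and 0.60 (limma, Benjamini-Hochberg adjusted p = 0.028 each).

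**Figure D5:**
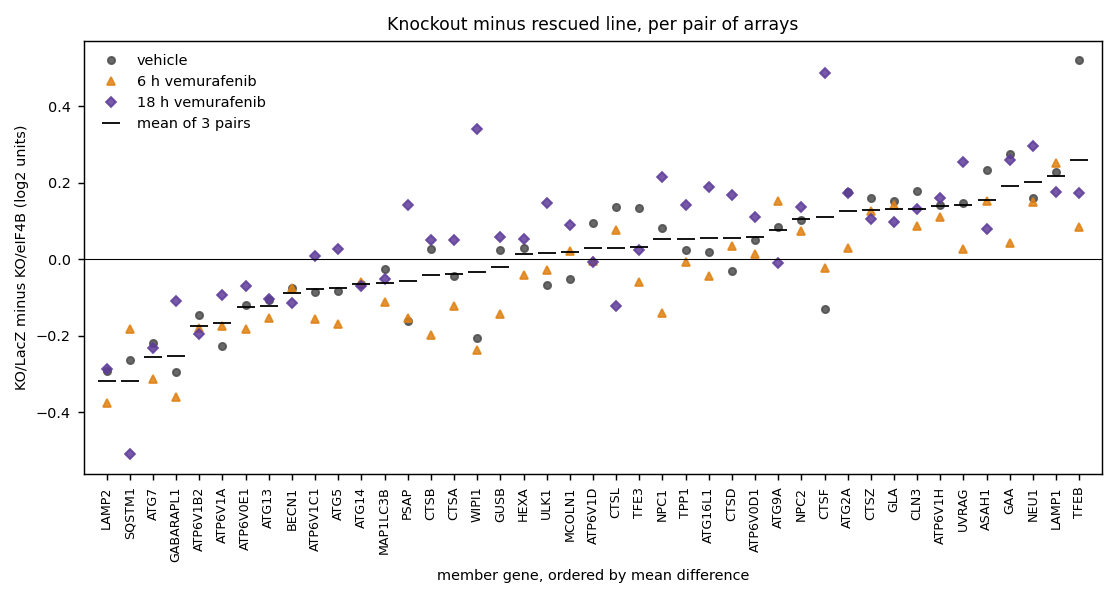
Knockout minus rescued line in log2 units for the 43 tested members, with 1 point for each treatment (circle vehicle, triangle 6 h, diamond 18 h) and a bar for the mean of the 3 pairs, ordered by that mean. Means run from -0.32 in LAMP2 and SQSTM1 to 0.26 in TFEB, and the 18 h points of CTSF and WIPI1 stand above their other points.

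No difference between the lines in their response to the drug passed the test. A difference in response shared by 6 h and 18 h was called in 0 of 43 members and in 0% of all genes (limma, Benjamini-Hochberg threshold 0.05, 1 residual degree of freedom), and 1 member, TFEB, had an unadjusted p under 0.05, as 2.24% of all genes did. TFEB changed by -0.14 and 0.18 in KO/LacZ cells at 6 h and 18 h, and by 0.29 and 0.53 in KO/eIF4B cells, a difference of -0.39 (limma, Benjamini-Hochberg adjusted p = 1.0). At single times the difference has no error estimate. At 6 h 0 members differed by 0.5 log2 units or more, where 2.09% of all genes did. At 18 h 2 members did, CTSF by 0.61 and WIPI1 by 0.55, knockout minus rescued, where 3.71% of all genes did. For the strongest risers the lines were close at 18 h: ASAH1 changed by 0.96 in KO/LacZ cells and 1.12 in KO/eIF4B cells, NEU1 by 0.95 and 0.81, HEXA by 0.82 and 0.79, and CTSA by 0.85 and 0.75, in that order of lines.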

How the data were processed

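Biotin-labelled cRNA made from total RNA of 6 samples was hybridised to Affymetrix U133 Plus 2.0 arrays, 1 per line and treatment, per the labels. The authors deposited linear RMA intensities, and RMA and the affy package are named per the submitters' processing notes, with versions not given in the sources used here. This method gives all arrays nearly 1 distribution, which hides any change in mRNA per cell as a whole, and it compresses changes of dim probe sets. The number of arrays limits the precision.

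Log2 was taken of the deposited intensities. Each gene was read from its brightest single-symbol probe set, judged by the mean of the 6 arrays, and 28 members had more than 1. Symbols were updated through RefSeq gene identifiers (41037 of 41091 probe sets matched). Genes whose mean reached 5 log2 units were fitted with limma 3.58.1 in R 4.3.3, with line and treatment as additive terms and Benjamini-Hochberg adjustment over all genes. The fit has 2 residual degrees of freedom, which come from the disagreement between the lines. A prior estimated over all genes tested adds 3.19, so the error of a gene is in part borrowed from the other genes. The fit was tested on simulated data. It recovered 28.4% of changes of 0.5 log2 units at 6 h, 49.3% at 18 h and 37.3% between the times. For changes of 1 log2 unit it recovered 89.6%, 97% and 94%. Between the lines the shares were 70.1% and 95.5%. Changes of 0.5 log2 units or less that did not pass may therefore have been missed. The alternatives were the filter on dim genes, the choice of probe set, centred arrays, an intensity trend, a test beyond 0.5 log2 units, fewer arrays and arrays left out. The members and lists were chosen with earlier results of these data known. All 6 array values are given for members past the threshold by at least 0.5 log2 units in a drug comparison, and for TFEB and TFE3. MITF, and other pathway genes that pass with 0.5 log2 units at 18 h, are named, and list members otherwise by role. LAMP2, EIF4B and the probe sets singled out were chosen after their values were seen.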

Additional observations from a re-analysis of the deposited data

Results flagged for a closer look

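MAP1LC3B, an ATG8 protein, moved in opposite directions in the lines at both times. It changed by -0.07 and -0.01 log2 units in the knockout line at 6 h and 18 h, and by 0.01 and 0.02 in the rescued line. The shared difference in response was -0.057 log2 units, knockout minus rescued, and did not pass (limma, Benjamini-Hochberg adjusted p = 1.0). All 4 changes were smaller than 0.1 log2 units.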

How the results depend on the processing

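At 6 h, 5 higher and 2 lower members became 2 and 1 without the filter on dim genes, 9 and 5 with an intensity trend, and 0 and 0 for a change beyond 0.5 log2 units. The 2 lower ones became 0 with the mean of all probe sets. Leaving out single arrays gave 0 to 7 higher and 0 to 2 lower. At 18 h, 23 higher and 7 lower became 4 (ASAH1, NEU1, HEXA and CTSA) and 0 for a change beyond 0.5, and 12 to 23 and 0 to 7 without single arrays. For 18 h against 6 h, 15 higher and 2 lower became 9 and 1 without the dim filter and also with only the 4 arrays concerned, 0 and 0 for a change beyond 0.5, and 6 to 11 and 0 to 2 without single arrays. The lower count was also 1 with centred arrays and in the fit over all probe sets. Between the lines, 0 and 0 became 1 higher and 4 lower with the trend and 2 lower with a minimum of 6 log2 units, and stayed 0 without single arrays. The 54 member calls against vehicle and between the times gave 701 values under these alternatives, of which 497 kept their call, 204 lost it and 0 changed sign. Of those lost, 50 were under the test beyond 0.5 log2 units and 121 without single arrays. In the HEXA case for 18 h against 6 h, averaging its dim probe sets in gave 0.14. The cause was not tested.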
